A study of Lotus japonicus with 6 samples.

Results

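Chalcone reductase genes were followed in leaves of Lotus japonicus lines labelled as overexpressing the MYB transcription factor LjMyb14 and in wild type leaves. The genes are those coded CHR with CM1092 in the name and those coded PKR, which is read here as polyketide reductase, another name of the enzyme. They were taken from the array by name: a spot belonged to them if its name began with PKR, or began with CHR and a number and contained CM1092. This gave 7 genes of the 2881 on the array, on 14 probes and 70 spots, namely CHR04 and CHR05 and PKR1 to PKR5. All 7 had at least 1 probe that passed the filter on dim signals, which 2487 genes of the array did. The set was proposed with the difference between the lines and wild type already known, so that difference is a description for these genes. No p-value is given for it, and where one of these genes is said to be called, nothing is read from the call.

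Total RNA came from leaves of plants of accession MG20 grown in vitro. The 3 independent transgenic lines carry LjMyb14 under a Lotus ubiquitin promoter, a constitutive promoter that is not limited to the leaf, and the 3 wild type samples are the same accession without it. RNA of each sample went onto its own array, a custom 1-colour Agilent design. The labels do not say how many plants made up a sample, so the spread between samples may be partly technical.

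Chalcone reductase acts together with chalcone synthase. It removes an oxygen from the growing polyketide, so that the joint product is a deoxychalcone instead of the ordinary chalcone from which most plants make flavonoids. In legumes the deoxychalcone leads to the deoxyisoflavonoids, among them vestitol, a phytoalexin of Lotus. The enzyme belongs to the aldo-keto reductase superfamily, whose members in a legume genome are often close copies of each other.

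Values below are log2 signals relative to the 75th percentile of the array, and 1 unit is a 2-fold change. Between wild type arrays 1 and 3 the difference was below the sampling noise of replicate spots: it had 0.546 times the variance that spot noise alone would give, where other same-group pairs had 2.27 to 8.61 times. These arrays were averaged into 1 sample, which gives n = 3 for the lines and n = 2 for wild type. At the tested LjMYB14 probe the targeted gene did not show the labelled overexpression, but its signal was near the low end. This probe was well above background on 3 line arrays and on 2 wild type arrays. The tested LjMYB14 probe stood at -5.79, -4.62 and -6.03 in lines 1, 2 and 3, against -6.07, -5.20 and -5.89 in wild type 1, 2 and 3, a log2 difference of 0.11 (limma adjusted p = 0.939). The other LjMYB14 probe was well above background on 1 line array and on 0 wild type arrays, and its difference of 0.81 was not tested. Nothing in the labels tells whether these probes fall within the transgene, so the lines are called by their label only. The leaf could not be checked against photosynthesis genes, since 0 names on the array began with the leaf codes searched.

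CHR04_CM1092.70.nc and CHR05_CM1092.80.nc, whose names carry adjacent numbers after CM1092, had the largest differences of the 7 genes. At its brighter probe CHR04 stood at 2.96, 3.58 and 3.14 in lines 1, 2 and 3, against -0.61, 0.74 and -0.62 in wild type 1, 2 and 3. CHR05 stood at 3.00, 3.60 and 3.20 in lines 1, 2 and 3, against -0.57, 0.74 and -0.48 in wild type 1, 2 and 3. Line 2 was the highest of the lines and wild type 2 the highest of the wild type arrays for both genes. The groups did not overlap, and the lowest line lay 2.21 above the highest wild type array for CHR04 and 2.26 above it for CHR05. In unscaled intensity CHR05 read 3250, 4740 and 3710 in the lines, against 262, 610 and 280 in wild type.

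The mean of CHR04 was 3.22 ± 0.32 (SD, n = 3) in the lines and 0.06 ± 0.96 (SD, n = 2) in wild type. This is a log2 difference of 3.16 with a standard error of 0.45, or 8.93-fold, with a 95% interval from 4.11-fold to 19.4-fold. The mean of CHR05 was 3.27 ± 0.31 (SD, n = 3) in the lines and 0.11 ± 0.90 (SD, n = 2) in wild type, a difference of 3.16 with a standard error of 0.43. The spread in both genes came mainly from wild type. Only 12 of the 2487 genes had a larger difference than CHR05, and 13 had a larger difference than CHR04. In bulk leaf RNA a change in the number of cells that express a gene and a change in RNA per cell cannot be told apart.

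CHR04 and CHR05 followed each other closely on these arrays. At the brighter probes the signal of CHR04 minus that of CHR05 lay between -0.142 and -0.002 on the 6 arrays. Their 6 values, each centred on its own mean, differed by a root mean square of 0.044. The brighter and dimmer probes of CHR04 differed in the same way by 0.033, and those of CHR05 by 0.036. The spots of 1 probe on 1 array differed by an SD with a median of 0.08 over the members' probes that were well above background. That SD is of single spots, whereas the 0.044 of the pair compares averages of 5 spots, so their sizes are not directly comparable. The dimmer probes repeated the difference between the groups, at 3.17 for CHR04 and 3.19 for CHR05. Probe sequences were not used here, so whether 1 probe binds both transcripts was not tested.

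**Figure D1:**
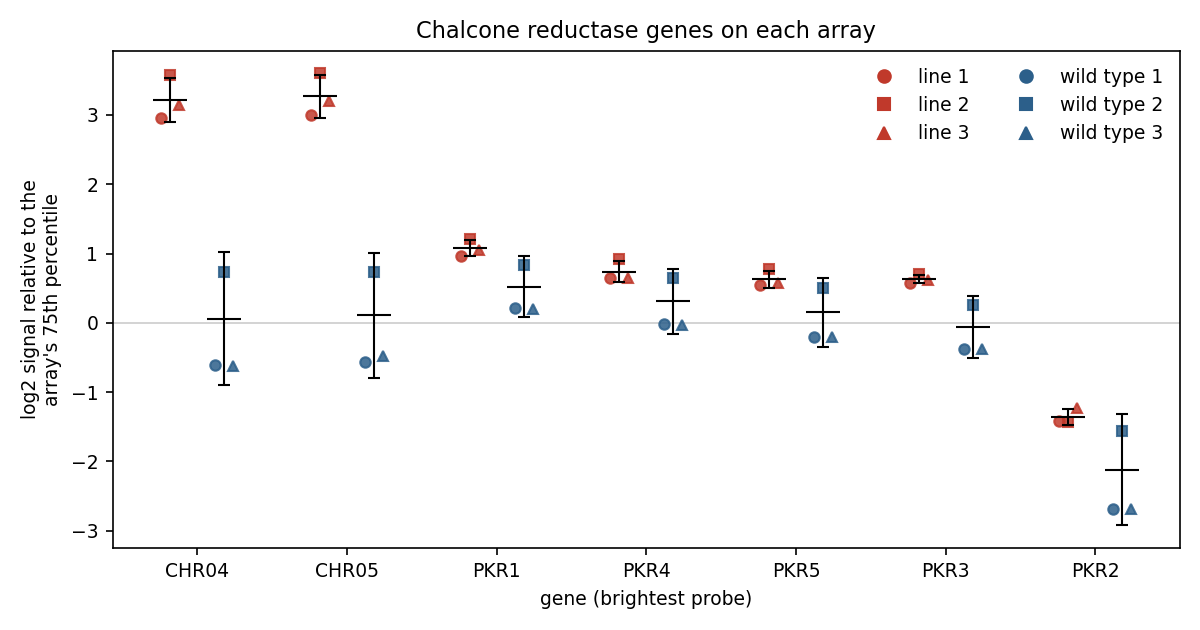
Log2 signal relative to the 75th percentile of the array (y axis) at the brightest probe of each chalcone reductase gene (x axis), for lines 1 to 3 (red, left of each pair) and wild type 1 to 3 (blue, right). Black bars are the mean and SD over 3 lines and over 2 wild type samples, with wild type arrays 1 and 3 averaged. CHR04 and CHR05 lie near 3.22 and 3.27 in the lines and wild type 2 is the highest wild type array for all 7 genes; heights of different genes are not comparable, because each gene has its own probe.

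The 5 genes coded PKR had smaller differences between the groups. PKR1, PKR4, PKR5 and PKR3 carry the identifiers CM0191.390, CM0191.400, CM0191.410 and CM0191.480 of chromosome 2, so they are numbered close to each other after the same prefix. PKR2_LjSGA_019910.1 has no chromosome in its name. At the brightest probes the log2 differences were between 0.43 and 0.76, with a median of 0.55.

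PKR1_chr2.CM0191.390.nc stood at 0.97, 1.21 and 1.05 in lines 1, 2 and 3, against 0.22, 0.84 and 0.20 in wild type 1, 2 and 3. The lowest line exceeded the highest wild type array by 0.13. The difference in means was 0.55 with a 95% interval from -0.09 to 1.20, and its dimmer probe gave 0.64. PKR3_chr2.CM0191.480.nc stood at 0.58, 0.70 and 0.62 in the lines, against -0.38, 0.26 and -0.37 in wild type. At the brighter probes it had the widest gap of the PKR genes, 0.32 between the lowest line and wild type 2, and at its dimmer probe the gap was 0.07, against 0.25 at that of PKR1. Its difference in means was 0.69 with a 95% interval from 0.06 to 1.32, and 0.60 at the dimmer probe.

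PKR2_LjSGA_019910.1 read -1.42, -1.43 and -1.23 in the lines, against -2.69, -1.56 and -2.68 in wild type. The lines lay close together and just above wild type 2, by 0.13, while wild type 1 and 3 lay more than 1 unit lower. The difference in means was 0.76 with a 95% interval from -0.15 to 1.67. The other probe of PKR2 was not well above background on any of the 6 arrays and gives no value for the gene.

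PKR4_chr2.CM0191.400.nc and PKR5_chr2.CM0191.410.nc had probes that pointed in opposite directions. At its brighter probe PKR4 stood at 0.65, 0.92 and 0.65 in the lines, against -0.02, 0.65 and -0.03 in wild type. The lowest line and wild type 2 were equal to 2 decimals, and the mean difference was 0.43 with a 95% interval from -0.25 to 1.10. At its dimmer probe PKR4 stood at -5.40, -4.97 and -5.10 in the lines, against -4.32, -2.59 and -4.45 in wild type. Here every line lay below every wild type array, and the mean difference was -1.67 with a 95% interval from -3.02 to -0.33. Wild type 2 set much of this size, since the difference was -0.77 without it and -2.57 against it alone.

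The brighter PKR5 probe read 0.55, 0.77 and 0.58 in the lines, against -0.20, 0.50 and -0.21 in wild type, a difference of 0.49 with a 95% interval from -0.19 to 1.17. The dimmer PKR5 probe read -4.84, -4.95 and -4.58 in the lines, against -5.13, -3.44 and -4.83 in wild type, so the groups overlapped. Its mean difference of -0.58 turned to 0.19 without wild type 2. Both dimmer probes were well above background on all 6 arrays, though near the low end of the signal. In unscaled intensity the dimmer PKR4 probe read 9.85, 12.5 and 11.8 in the lines, against 19.5, 61.2 and 17.9 in wild type. The centred values of the brighter and dimmer probes differed by a root mean square of 1.031 for PKR4 and 0.574 for PKR5, against 0.051 for PKR1 and 0.105 for PKR3. Which of the probes reports PKR4 or PKR5 alone was not tested.

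**Figure D2:**
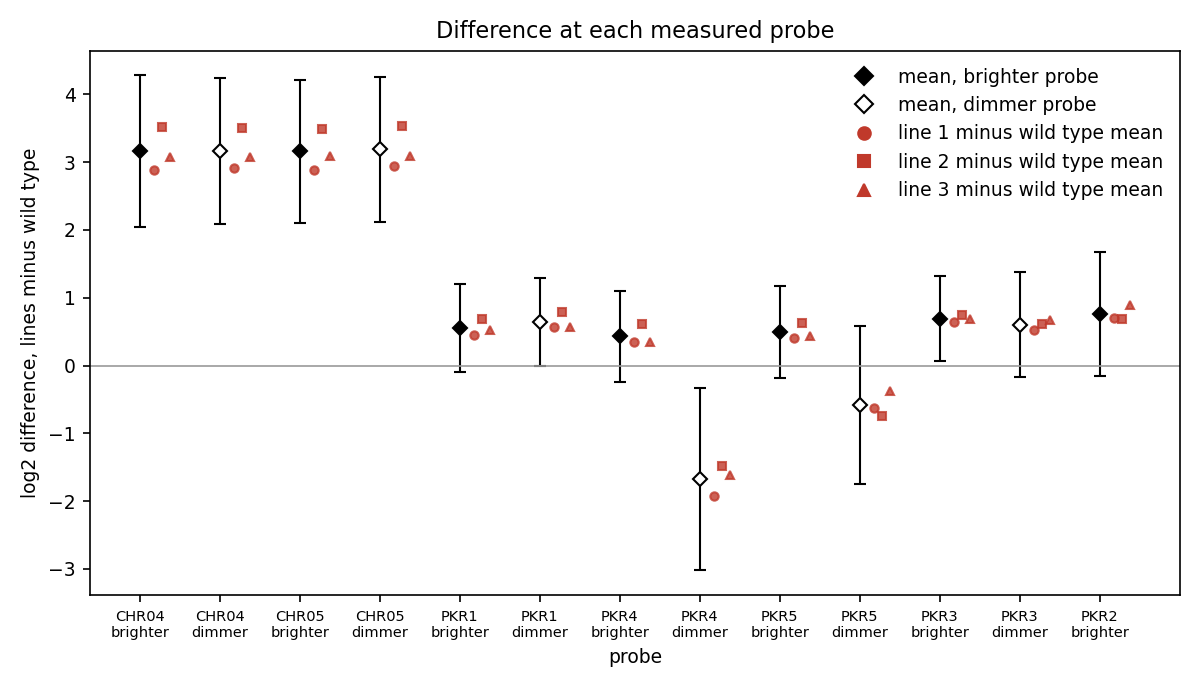
Log2 difference of the lines minus wild type (y axis) at each of the 13 tested probes (x axis). Diamonds are means with 95% intervals from the fit, filled for the brighter probe of a gene and open for the dimmer one, and red points are each line minus the wild type mean. The CHR04 and CHR05 probes lie between 3.16 and 3.19, and 2 of the 9 PKR probes, the dimmer ones of PKR4 and PKR5, lie below 0 at -1.67 and -0.58.

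The brighter PKR probes also followed each other closely. Centred values of PKR1 and PKR5 differed by a root mean square of 0.038, those of PKR4 and PKR5 by 0.041 and those of PKR1 and PKR4 by 0.069. PKR3 differed from these 3 genes by 0.079 to 0.142 and PKR2 by 0.246 to 0.289. PKR1, PKR4 and PKR5 thus lay about as close to each other as the brighter and dimmer probes of CHR04, CHR05 and PKR1, which differed by 0.033 to 0.051. The PKR genes differed from CHR04 and CHR05 by 1.229 to 1.445.

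All 7 genes had a positive difference at the brightest probe and a median of 0.69, against a median of -0.09 over all 2487 genes, of which 1046 were positive. In all 7 the lines lay above every wild type array, PKR4 by less than 0.01, and 15.4% of all genes showed this. CHR04 and CHR05 were among the 2.21% of all genes called higher (limma adjusted p under 0.05 and at least 2-fold), where 1.09% were called lower. Because the set was chosen on this contrast, nothing is read from these counts or calls. The calls of CHR04 and CHR05 rested on few samples. They ended without line 1 (differences of 3.29 for both) and without line 3 (3.20 and 3.19). Calls fell across the array as well, from 116 probes higher to 13 without line 1 and 47 without line 3. Without wild type 2, or without wild type 1 and 3 together, 1 wild type sample was left, so only differences are given. They were 3.84 and 3.79 without wild type 2, and 2.48 and 2.53 without wild type 1 and 3. Line 1 was the only line on the same row of the slide as the wild type arrays, and within that row its difference was 2.89 for both genes.

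The range over the 3 lines had a median of 0.22 for the 5 PKR genes, against 0.62 for all genes. For the 112 other tested genes of the isoflavonoid pathway (chosen by code) it was 0.45. By code it ran from 0.20 for vestitone reductase (VR) to 0.88 for isoflavone synthase (CYP93C), with 0.39 for chalcone synthase (CHS). A narrow range was thus not particular to the PKR genes, which also had closely similar profiles and are not 5 separate observations. For CHR04 and CHR05 the range over the lines was 0.63 and 0.60, about that of all genes. Line 2 was the highest line at 10 of the 13 tested probes. The median difference of the 5 PKR genes was 0.45, 0.69 and 0.52 in lines 1, 2 and 3.

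Within wild type, array 2 stood above arrays 1 and 3 for every gene of the set. The excess over their mean was 1.35 for CHR04, 1.27 for CHR05, 1.13 for PKR2 and 0.63 to 0.70 for the other PKR genes. It was positive at 13 of 13 tested probes and reached 1.80 at the dimmer PKR4 probe. Over all 2487 genes the median was -0.09, 938 genes were higher on array 2, and 6.35% were higher by as much as the least of the 7 genes. It was also reached by 17% of the 112 other tested genes of the isoflavonoid pathway (chosen by code). Of these 112 genes, 58 were higher on array 2, and their median excess was 0.01. By code, array 2 was higher for 3 of 3 vestitone reductase genes (VR), 2 of 2 PTR genes and 4 of 4 isoflavone synthase genes (CYP93C). For the genes coded PAL, C4H or CoumLig it was higher in only 3 of 14, 1 of 6 and 3 of 15. For the brightest probes of PKR1, PKR2, PKR4 and PKR5 the excess of wild type 2 was larger than the difference between the lines and wild type. Against wild type 2 alone the difference of the PKR genes was 0.09 to 0.37, and against wild type 1 and 3 it was 0.76 to 1.32. This is 1 array, so the excess has no replicate, and no test was made of it.

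**Figure D3:**
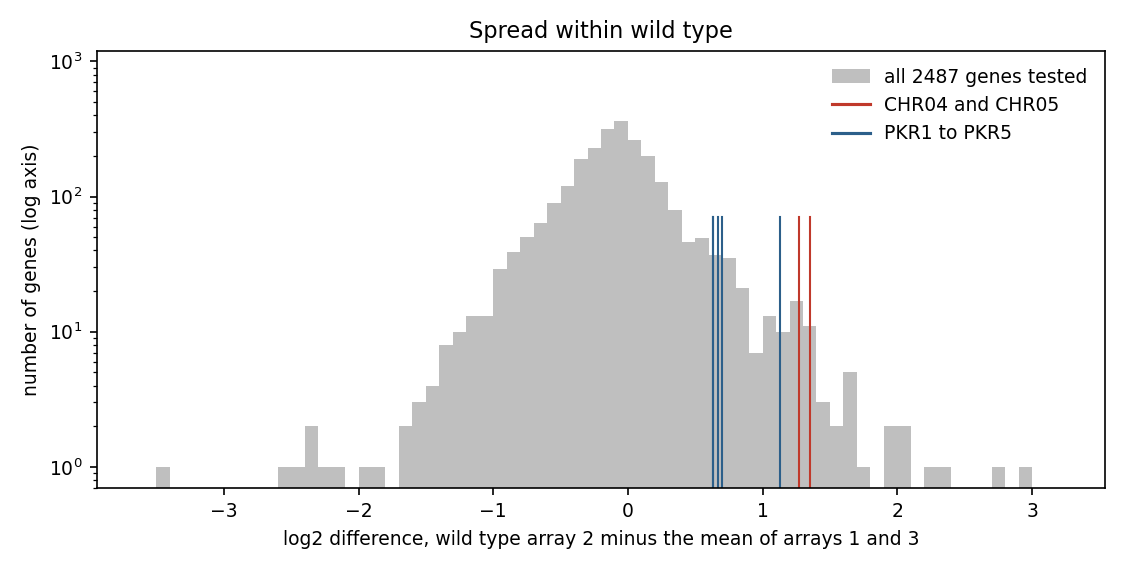
Number of genes (y axis, log scale) by the log2 difference of wild type array 2 minus the mean of wild type arrays 1 and 3 (x axis), for all 2487 tested genes at the brightest probe (grey). Lines mark CHR04 and CHR05 (red, 1.35 and 1.27) and the PKR genes (blue, 0.63 to 1.13), all to the right of the median of -0.09.

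The same comparison was made for other genes of the isoflavonoid pathway, taken by a list of codes. The 127 other genes were coded PAL, C4H or CYP73A, CoumLig, CHS, CHR outside CM1092, CHI, CYP93C, HID, I2H or CYP81E, IFR, VR, PTR and 7Methyl. Of 112 that were tested, 14 rose in the lines and 0 fell (limma, adjusted p under 0.05 and at least 2-fold, where 2.21% of all genes rose and 1.09% fell). At an unadjusted p under 0.05, 39 were higher and 4 lower, where 9.53% of all genes were higher and 10.0% lower at that threshold. The count of 14 fell to 1 without line 1 and to 2 without line 3, and it was 25 without line 2. Leaving out wild type 2, or wild type 1 and 3 together, left 1 wild type sample, and no count is given there. The count was 0 with the row of the slide as a block and 1 with scaling on spike-in probes. The median log2 difference was 0.29, and 72 of the 112 were positive. These families are known to be partly made of close copies, so the number of separate genes may be smaller.

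In the first steps, which turn phenylalanine into coumaroyl-CoA, 10 of the 35 tested genes rose. CYP73A_LjSGA_082453.1, a cinnamate hydroxylase, was 2.91 ± 0.15 (SD, n = 3) in the lines and -0.31 ± 0.10 (SD, n = 2) in wild type, a difference of 3.22 (limma adjusted p = 0.00396). This was about as large as that of CHR04 and CHR05, without a high value on wild type 2, which read -0.38 against -0.18 and -0.29 on wild type 1 and 3. CYP73A_LjSGA_029001.1 rose by 2.75 (limma adjusted p = 0.0288) and C4H05_LjSGA_031602.1 by 1.60 (limma adjusted p = 0.0223). The phenylalanine ammonia-lyase genes PAL02 to PAL05, with CM0033 in their names, rose by 1.15 to 1.28. CoumLig1_chr2.CM0018.1240.nc, CoumLig16_chr6.CM0057.160.nc and CoumLig20_LjSGA_016012.1, read as coumarate ligases, rose by 1.39, 1.44 and 1.58.

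Chalcone synthase, the partner of chalcone reductase, had a median difference of 0.63 over 28 genes, close in size to the PKR median of 0.55. By the brightest probe no CHS gene was called (limma), and 11 had an unadjusted p under 0.05, all of them higher in the lines, against 9.53% of all genes. The smallest p belonged to CHS08_chr2.CM0018.1080.nc, at 1.10, 1.48 and 1.13 in the lines, against -0.16, 0.15 and -0.14 in wild type (difference 1.23, limma adjusted p = 0.0567). The dimmer CHS08 probe stood at 0.565, 0.872 and 0.761 in the lines, against -0.921, -1.275 and -0.929 in wild type, and it passed the test (difference 1.83, limma adjusted p = 0.0237). Wild type 2 was thus the highest wild type array at the brighter CHS08 probe and the lowest at the dimmer one. By the brightest probe it exceeded arrays 1 and 3 in 20 of the 28 CHS genes, by a median of 0.32. Of 6 CHI genes, which code for chalcone isomerase, the enzyme after chalcone formation, 0 were called (1 at an unadjusted p under 0.05) and the median was 0.62. CHI04_chr5.CM0260.400.nc had the smallest p, with a difference of 1.02 (limma adjusted p = 0.0677).

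After the isomerase, single genes of the listed codes rose. VR1_chr1.CM1255.320.nc, read as a vestitone reductase, an enzyme of the last steps toward vestitol, stood at 2.18, 2.27 and 2.39 in the lines, against -0.81, 0.35 and -0.83 in wild type (difference 2.52, limma adjusted p = 0.0337). HID3, read as a hydroxyisoflavanone dehydratase, rose by 1.73 (limma adjusted p = 0.0498). CYP81E_chr2.CM0250.70.nc, of a family of isoflavone hydroxylases, rose by 1.90 (limma adjusted p = 0.0218). IFR4_, whose code stands for isoflavone reductase, rose by 1.69 (limma adjusted p = 0.0208). Each was the only called gene of its code, among 3 VR, 7 HID, 8 I2H or CYP81E and 7 IFR genes. The median difference was -0.05 for VR, -0.13 for HID, -0.6 for I2H or CYP81E and 0.36 for IFR. In the same order, 1, 2, 2 and 5 genes had a positive difference, so most genes of the first 3 codes were lower in the lines. LjI2H, whose name does not begin with I2H or CYP81E, was left out of these counts, and its difference was 0.9. None of the 4 CYP93C genes (isoflavone synthase), 2 PTR genes or 8 genes coded 7Methyl was called (limma, with 1, 0 and 1 at an unadjusted p under 0.05, all lower in the lines). The smallest p among them belonged to CYP93C_chr4.CM0692.280.nc (difference -1.91, limma adjusted p = 0.223), PTR3_chr3.CM0216.20.nd (-0.84, limma adjusted p = 0.361) and 7Methyl2_chr2.CM0191.600.nc (-1.35, limma adjusted p = 0.0862). The last carries the same prefix, CM0191, as PKR1, PKR3, PKR4 and PKR5.

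**Figure D4:**
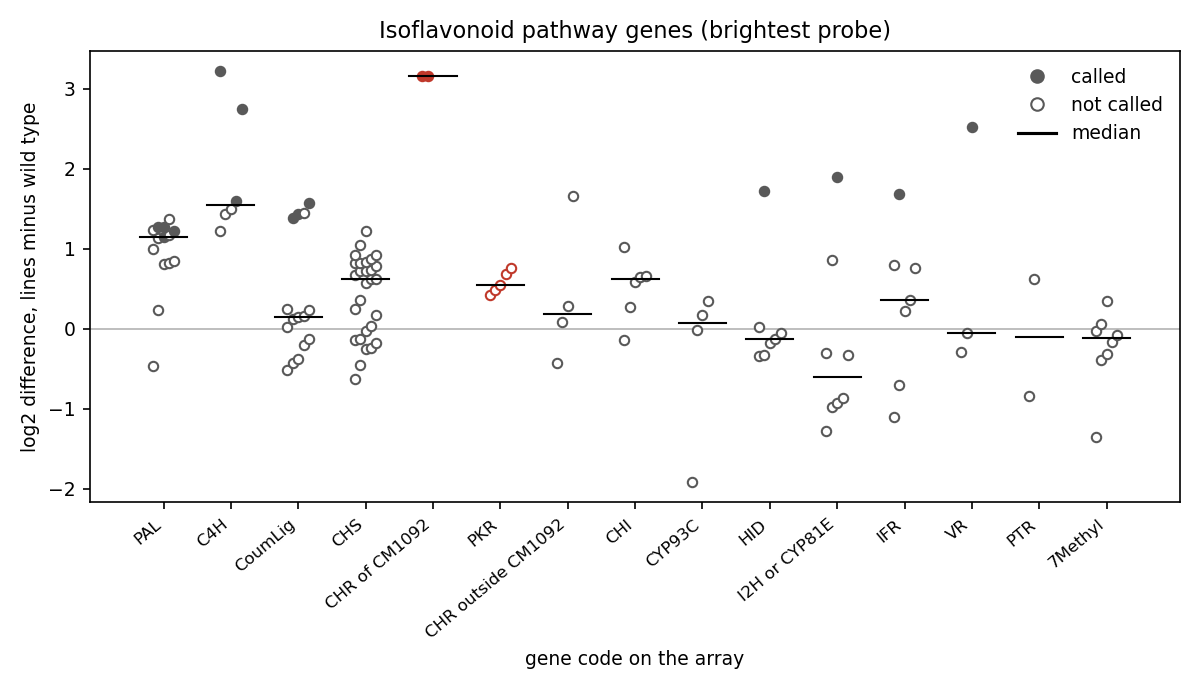
Log2 difference of the lines minus wild type (y axis) at the brightest probe of each tested gene, by the code in its name (x axis, in pathway order). Filled points were called, open points were not, bars are medians, and the chalcone reductase genes described here are red. CHR04 and CHR05, which were picked for their difference, lie at 3.16. The PKR genes have a median of 0.55, and the 4 other tested CHR genes a median of 0.19 (-0.43 to 1.66). CYP73A_LjSGA_082453.1, under C4H, lies at 3.22.

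The other CHR genes had smaller differences than CHR04 and CHR05. Of 10 without CM1092 in the name, 4 passed the filter on dim signals and 0 were called (limma, with 1, CHR07, at an unadjusted p under 0.05). The median difference of these 4 was 0.19. CHR01_LjT35G18.140.nd, well above background on all arrays, stood at 1.95, 1.65 and 2.25 in the lines, against 2.28, 2.48 and 2.28 in wild type, a difference of -0.43 (limma adjusted p = 0.416). CHR02_LjT35G18.70.nd, with the same prefix LjT35G18, differed by 0.09 (limma adjusted p = 0.901). CHR07_LjSGA_104285.1 was well above background in all 3 lines and on 0 wild type arrays. Its mean was -5.23 in the lines, against a floor of -6.78 in wild type (measured mean -6.88), a ratio of 2.93-fold. This is no lower bound for single arrays, since wild type 1 read -6.55, above the floor, and line 2 read -5.68. CHR07 passed the filter on dim signals only through the lines, so it had to differ, and nothing is read from its p or this ratio. As a ratio of means, it takes no account of how samples within a group vary. The other CHR07 probe was well above background on 0 arrays. CHR08_LjSGA_074327.1 differed by 0.29 (limma adjusted p = 0.723). Whether the difference of CHR04 and CHR05 exceeds that of the other CHR genes was not tested, since CHR04 and CHR05 were picked for it.

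Genes with the most similar profile were sought by the smallest root mean square difference of centred values over the 6 arrays, among 2221 other genes well above background on every array. For CHR05 these were LjERF41 (0.365), VR1_chr1.CM1255.320.nc (0.375) and UGT71B_LjSGA_025093.1 (0.437), where the median of all candidates was 1.84. The same 3 came first for CHR04, at 0.368, 0.389 and 0.453. LjERF41, an ERF transcription factor by its name, stood at -1.741, -1.460 and -1.393 in the lines, against -4.583, -3.355 and -4.841 in wild type. UGT71B_LjSGA_025093.1, a glycosyltransferase by its code, stood at -1.131, -1.284 and -1.151 in the lines, against -4.326, -2.994 and -4.115 in wild type. In each of these 3 genes, as in CHR04 and CHR05, wild type 2 was more than 1 unit above the other wild type arrays.

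For the PKR genes the median of all candidates was 0.53 to 0.74. Of the 15 places among their nearest 3 genes, 9 were taken by 5 chalcone synthase genes, where 28 of the 2221 candidates were coded CHS. These places are not independent, since PKR1, PKR3, PKR4 and PKR5 differed from each other by only 0.038 to 0.142. No enrichment is read from them. CHS12_chr1.CM0284.240.nc was nearest to PKR1 (0.061), PKR3 (0.069) and PKR5 (0.079). It stood at 1.021, 1.184 and 0.926 in the lines, against 0.147, 0.713 and 0.094 in wild type. CHS15_chr2.CM0018.1150.nc was among the nearest 3 of PKR1 (0.095), PKR4 (0.099) and PKR5 (0.105), and CHS16_chr2.CM0018.1250.nc of PKR5 (0.111). CHS13_chr1.CM0284.250.nc was second for PKR3 (0.072), and IFLGT06_chr4.CM0739.120.nd came within the nearest 3 of PKR1 (0.078) and PKR3 (0.082). PKR4 was nearest to FOLGT03_chr3.LjT35O23.10.nd and ugt72K1_ntc (0.097 for both), which came ahead of CHS15. The nearest genes of PKR2 were CHS24_chr1.CM0591.370.nd (0.145), CYP81E6_ntc (0.170) and LjI2H (0.175). With 6 arrays that share 2 groups and 1 high wild type array, such likeness describes these arrays only.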

How the data were processed

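Leaf RNA of 3 lines and 3 wild type samples was measured on 6 arrays of 1 slide with 1 scan time. Per the file headers, the deposited intensity had its background subtracted and a spatial trend removed on each array by Agilent Feature Extraction 10.7.3.1 (version also per the submitters' processing notes), with no scaling between arrays. All 91068 cells of the deposited value table were exactly equal to these intensities, with a tolerance of 0.

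From these, log2 intensity minus the 75th percentile of the array was computed. Outlier-flagged spots (32 to 78 per array) were left out, no spot was saturated, and spots of a probe (5 for each member probe) were averaged. Probes well above background in at least 0.5 of their spots on at least 3 arrays were tested: 5038 probes of 2487 genes, fitted with limma 3.58.1 (R 4.3.3) on 5 samples, with Benjamini-Hochberg adjustment over all probes. Names sharing a locus identifier were 1 gene, represented by its brightest probe. The number of arrays limits the precision (degrees of freedom: 3 residual and 2.54 from limma's prior). Normexp used the spot median signal, as no mean signal column was present.

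The members, lists and tests were chosen with earlier results of these data known. The text names all members, up to 4 called genes per pathway code (or the one with the smallest p), the 3 genes most like each member and LjMYB14. Other CHR genes were also named, after their values were seen. No sequences are printed, since the files used here hold none for these genes.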

Additional observations from a re-analysis of the deposited data

How the results depend on the processing

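The median log2 difference of the 7 genes was 0.69, and it ranged from 0.24 to 1.01 when arrays were left out. In all 19 alternatives it moved by less than the SD between samples of a group. That SD is widened by the high wild type 2, so even the fall to 0.24 lay within it. No stability is read from this. The difference of each of CHR04 and CHR05 was positive in all 19. That of PKR4 and PKR5 was negative at the dimmest probe (-1.67 and -0.58, an alternative chosen after seeing the data) and as a mean over probes (-0.62 and -0.05). Scaling on spike-in probes, where line 2 stood at 2.92 and the other arrays at 1.77 to 2.17, moved the median of all genes by -0.23 and left PKR4 at 0.20. The number of members called was 0 with this scaling and 0 when slide row was a block, against 2, and 0 to 2 when arrays were left out. With spike-in scaling 13 probes were higher and 9 lower, against 116 and 57, and 1 pathway gene was higher, against 14. With the slide row as a block, which sets line 1 alone against wild type, 2 probes were higher and 0 lower, with 618 at an unadjusted p under 0.05 (limma), and 0 pathway genes were higher. With all 6 arrays counted singly 240 probes were higher and 168 lower, and 26 pathway genes higher and 2 lower. With the replicate number as a block on those 6 arrays the counts were 217 and 131, and 25 and 2. Same-numbered samples share only a number (correlations of their deviations 0.01, 0.17 and 0.07). Without a filter on dim probes 24 probes were lower and 9 pathway genes higher, without scaling 37 probes were lower and with normexp correction 34. Leaving out arrays gave 4 to 257 probes higher, 0 to 154 lower, and 0 to 25 pathway genes higher and 0 to 2 lower. The lowest counts came without wild type 1 and 3, without wild type 2 (7 and 1 probes) and without line 1 (13 and 2), and the highest without line 2. Without line 3 the counts were 47 and 30. The cause of these moves was not tested.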
